A study of Homo sapiens with 6 samples.

Results

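The genes described here are MYC, its dimerization partner MAX and genes whose products build ribosomes or bring components into the nucleus for that work. They were listed by name and sorted by role into 8 classes, 36 genes of 58735 named genes in the count table. Expression was measured by RNA sequencing of 8505C, a human thyroid cancer cell line derived from an undifferentiated (anaplastic) carcinoma. The control group holds 3 libraries labelled with a control hairpin (CTRL_shRNA), given as wild-type and untreated. The other group holds 3 libraries labelled with a hairpin against HHEX, a homeobox transcription factor of thyroid development. The hairpin sequences, their vector and whether the cells were a pool or a clone are unknown from the labels. Libraries are called KD1, KD2 and KD3 for the HHEX hairpin and control1, control2 and control3 for the control hairpin, after the columns of the table.

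MYC is a transcription factor that binds DNA as a dimer with MAX, at E-boxes with the core CACGTG. Among its known targets are many genes of ribosome production. Ribosomal RNA is made in the nucleolus by RNA polymerase I, is modified by small nucleolar ribonucleoproteins (snoRNPs), and is cut and folded into the small and the large ribosomal subunit by assembly factors. Cancer cells that grow fast often carry large nucleoli and high levels of these factors.

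The label check came first. HHEX was read at 14.8 CPM (counts scaled to a common library size) in KD1, whereas KD2 had 7.93 CPM and KD3 had 7.12 CPM, against 12.6, 12.8 and 11.98 in the controls. KD1 therefore held 118% of the control mean, and KD2 and KD3 held 63.6% and 57.1%. The log2 fold change between the groups was -0.33 (SE 0.28, edgeR adjusted p = 0.527), and an exact two-sided permutation test gave p = 0.4, where 0.1 is the smallest p that 3 against 3 libraries allow. HHEX in KD1 thus goes against its label, and every direction below is that of the libraries labelled HHEX shRNA. KD1 and KD2 were the most alike of all pairs (Pearson r = 0.989 on log2 CPM), whereas KD3 lay closer to the controls (r from 0.971 to 0.977) than to KD1 or KD2 (0.955 and 0.956). Total counts over named genes ran from 13333245 to 15144176, at which 3 counts equal 0.195 to 0.224 CPM. The design text calls the libraries biological replicates. In their titles, however, some libraries of a group share the first replicate number, so the p-values may in part measure technical spread. Of the thyroid markers, NKX2-1 ran from 18.0 to 50.5 CPM and PAX8 from 2.57 to 5.47 CPM, while thyroglobulin (TG) was under 1 CPM in every library. The epithelial keratins KRT7, KRT8 and KRT18 ran from 325 to 1015 CPM, whereas KRT19 and CDH1 (E-cadherin) were under 1 CPM in every library and EPCAM reached at most 2.28 CPM. Of 7 leukocyte markers, 6 were under 1 CPM throughout.

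The E-box was read from promoter sequence and not from the expression values. The genes, however, were listed by name, and many genes of ribosome production are known MYC targets. The share with an E-box is thus not independent of how the list was chosen. RefSeq promoter windows (GRCh38.p14, from 250 bases before to 50 bases after a gene start) were matched for 29 of the 36 genes. The motif CACGTG reads the same on both strands, so that a single search covers both. It was present in the windows of 14 of these 29 genes (48.3%), against 8.77% of 27305 genes with a window. Counted by window, 14 of 36 held it (38.9%), against 7.26% of 35116. Bases after the start of a window occurred in an annotated transcript of the gene for 31 of the 36. The windows with a match in UTP4 and GAR1 were not among these, so that their positions are less certain. Of the 15 matches, 14 began within 40 bases of the start, from position -31 to 35 with the start base as 0, and the other match lay at -170 before NOP10. Over all windows, 28.1% of 2821 matches began within 40 bases. A match is a description of letters and does not show that MYC binds there.

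The following stretches of 30 bases centred on the motif (capitals) show its setting in at least 1 gene of each class that had a match and was tested. They are written 5′ to 3′ on the strand of the gene.
FBL (chr19:39846356-39846385, minus strand): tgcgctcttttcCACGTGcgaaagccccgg
RRP9 (chr3:51941892-51941921, minus strand): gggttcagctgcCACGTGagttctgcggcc
NOP10 (chr15:34343130-34343159, minus strand): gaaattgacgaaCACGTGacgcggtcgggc
DDX21 (chr10:68956604-68956633, plus strand): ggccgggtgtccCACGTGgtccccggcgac
UTP20 (chr12:101280083-101280112, plus strand): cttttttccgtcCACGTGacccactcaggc
UTP4 (chr16:69132621-69132650, plus strand): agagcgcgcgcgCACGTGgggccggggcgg
PES1 (chr22:30591880-30591909, minus strand): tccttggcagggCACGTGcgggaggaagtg
GNL3 (chr3:52686026-52686055, plus strand): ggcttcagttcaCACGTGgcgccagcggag
The bases next to the motif differ between these genes. The motif begins before the start in DDX21 (-31), UTP4 (-16), NOP10 (-11), UTP20 (-10) and RRP9 (-5), and after it in FBL and GNL3 (6 in both) and PES1 (13). The start used for UTP4 is uncertain, and DDX21 and GNL3 each have a further window without the motif.

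**Figure D1:**
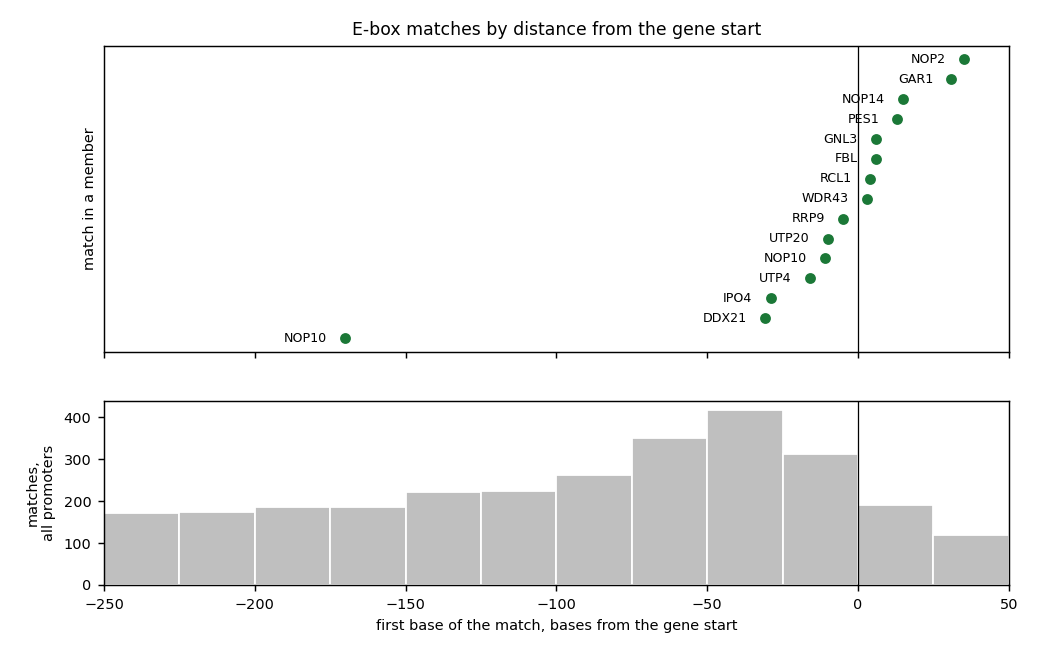
Positions of the E-box matches in the genes described here (upper panel, 1 point for a match, 15 in all) and number of matches in all RefSeq promoter windows per bin of 25 bases (lower panel), by distance of the first motif base from the gene start in bases. All but the match at -170 lie between -31 and 35.

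Levels in the control cells, per exon length (RPKM, which is CPM per kilobase of exon, mean ± SD, n = 3), spanned a wide range. The first 3 in the order were nucleolar scaffold proteins, while the fourth of that class, NOLC1, was 8th at 53.9 ± 2.68. NPM1 (nucleophosmin), a chaperone of ribosomal proteins, stood at 578 ± 37.6 RPKM, NCL (nucleolin) at 139 ± 4.10 and the RNA helicase DDX21 at 121 ± 12.3. NPM1 has many processed pseudogenes, so that its reads may be split by the counting. The small H/ACA protein NOP10 followed at 104 ± 14.5 and the methyltransferase FBL (fibrillarin) at 90.7 ± 8.87, and the libraries of DDX21 and NOP10, and of NOP10 and FBL, overlap. MYC was 18th in the order at 27.8 ± 2.69 RPKM, overlapping its neighbours DDX18 (30.5 ± 1.37) and RRS1 (27.2 ± 7.67). MAX stood at 13.8 ± 1.91 RPKM. At the low end of the well detected genes were the largest RNA polymerase I subunit POLR1A (4.48 ± 0.681 RPKM) and RCL1 (3.69 ± 0.0352). 

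Among the large subunit and import genes, 3 were near or at the detection limit. PPAN was read at 0.546 ± 0.169 RPKM, NOP2 had 0, 0 and 8 counts in the controls and 3, 11 and 5 in KD1, KD2 and KD3, and IPO4, an import receptor, had 0, 0 and 0 against 0, 1 and 2. These 3 genes share 54.4% (NOP2), 69.3% (IPO4) and 59.8% (PPAN) of their exon bases with another annotated gene on the same strand, and those neighbours had 0 counts, so that the levels of all 3 are uncertain. Opposite-strand overlap touched 27.4% of NHP2, 20.2% of NOB1, 20% of NOP16, 18.2% of POLR1C and 17.1% of NOP14, and whether the counting used strand is not stated in the labels. The 7 genes that carry small nucleolar RNAs in their introns host 25 of them. Of these RNAs, 14 had 0 counts in every library and the highest count was 14, in libraries made with an mRNA capture kit.

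**Figure D2:**
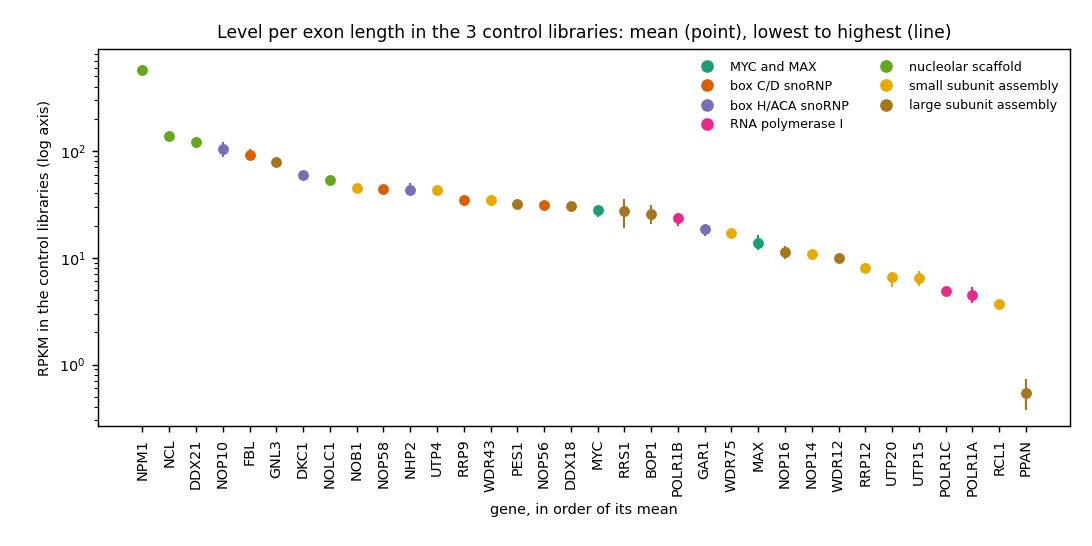
RPKM in the control libraries on a log axis, as the mean (point) and the range from lowest to highest library (line), in order of the mean and coloured by class. NOP2 and IPO4 are left out because they did not pass the filter on low counts. Of the genes shown, NPM1 is the highest at 578 and PPAN the lowest at 0.546.

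Between the 2 groups none of the 34 genes that could be tested passed the threshold, which few genes passed at all. The lack of calls therefore says nothing particular about these genes, and a fold change that misses the threshold does not show equal levels. NOP2 and IPO4 did not pass the filter on low counts, which left 14280 genes in all. In edgeR's quasi-likelihood test with Benjamini-Hochberg adjustment over all of them, 15 genes rose (0.105%) and 11 fell (0.077%) at an adjusted p under 0.05, and none was among the 34. At an unadjusted p under 0.05 there were 5 of the 34, all higher (NOP58, UTP20, NOLC1, WDR75 and POLR1A, 14.7%), against 10.4% of all tested genes that were higher and 10.2% that were lower by the same criterion. DESeq2 called 764 genes, 2.99% of its genes higher and 2.35% lower, with NOP58 as the sole gene of the 34 (DESeq2 adjusted p = 0.0261), and limma voom called none of the 34.

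Signs leaned to the higher side. Fold changes were positive for 25 of 34 genes with a median of 0.092 on the log2 scale, against 6945 of 14280 and a median of -0.014 for all tested genes. The number that was positive moved from 19 with upper quartile scaling to 28 without KD2. The median of all tested genes was -0.076 in the former setting and -0.0040 in the latter. Groups did not overlap, with every HHEX hairpin library above every control, for 7 of 34 genes (NOP58, DKC1, NCL, NOLC1, UTP15, UTP20 and WDR75, 20.6%) against 11.6% of all tested genes. The reverse held for 1 gene, RCL1, against 13.3%. Since bulk RNA was measured, more or fewer cells of a kind and more or less RNA per cell cannot be told apart.

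MYC (ENSG00000136997, on chromosome 8) split the libraries labelled HHEX shRNA. MYC transcripts were read at 42.3 CPM (KD1), 42.5 CPM (KD2) and 96.8 CPM (KD3), against 74.0, 88.0 and 88.1 CPM in the controls. KD1 and KD2 lay below every control, at 50.7% and 50.98% of the control mean, and KD3 lay above every control, at 116%. The group means were 60.5 ± 31.4 and 83.4 ± 8.07 CPM (SD, n = 3 each), and the log2 fold change of -0.46 had a 95% interval from -1.19 to 0.27 (SE 0.32, edgeR adjusted p = 0.427). Without KD3 it was -0.95 (SE 0.12, edgeR adjusted p = 0.000101), in a comparison in which 16.5% of genes were called higher and 15.1% lower. Without KD1 it was -0.26 (edgeR adjusted p = 0.751). MAX showed no such split, at 64.6, 58.0 and 67.6 CPM against 53.9, 70.5 and 59.4, and its fold change was 0.049 (SE 0.14, edgeR adjusted p = 0.866).

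**Figure D3:**
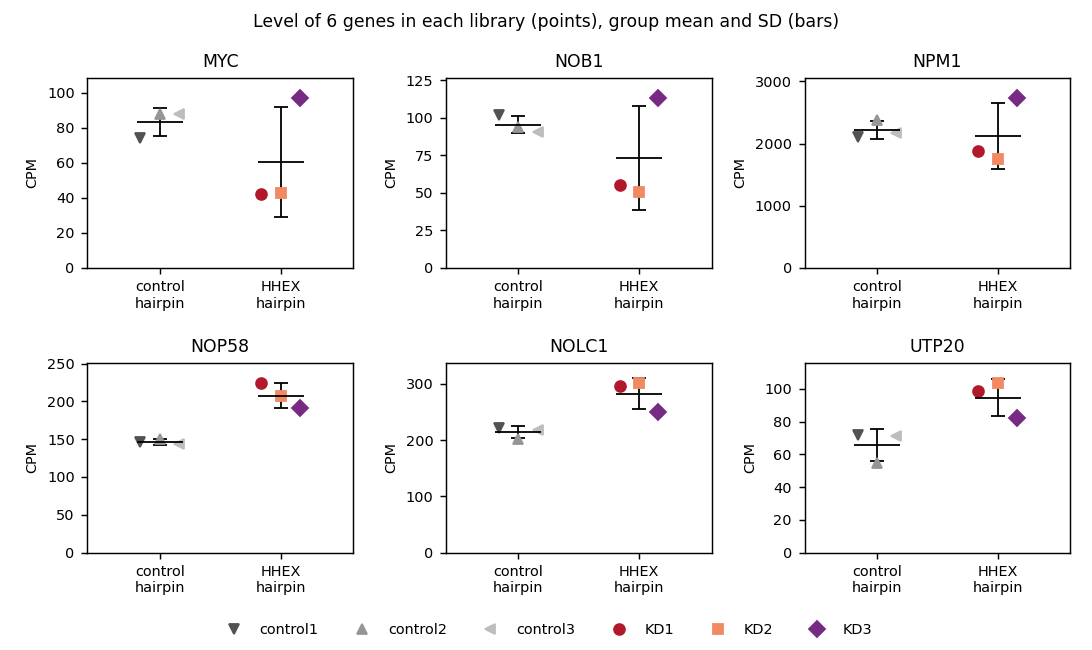
CPM of 6 genes in each library (points, with the mean as a horizontal line and the SD as error bars, n = 3 a group; each axis starts at 0). For MYC, NOB1 and NPM1, KD1 and KD2 lie below and KD3 above all controls, whereas for NOP58, NOLC1 and UTP20 all 3 HHEX hairpin libraries lie above the controls.

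Among the box C/D snoRNP proteins, which carry the guide RNAs for ribose methylation of ribosomal RNA, NOP58 had the smallest p of all 34 genes. NOP58 (ENSG00000055044, chr2:202265716-202303666) was read at 224, 208 and 191 CPM in the 3 HHEX hairpin libraries (KD1 to KD3 in order, here and below), against 146, 150 and 143 CPM in the controls. All 3 HHEX hairpin libraries were above the controls, and the log2 fold change was 0.50 (95% interval 0.24 to 0.77, SE 0.12, edgeR adjusted p = 0.105). Its partner NOP56 was above the controls in KD1 and KD2 (223 and 200 CPM) but not in KD3 (156 CPM), against 162 to 180 CPM. The methyltransferase FBL overlapped, at 208 to 239 CPM against 185 to 219. RRP9, which binds the U3 snoRNA, had the largest p of the class: its levels were 50.7, 41.9 and 59.1 CPM against 55.3, 56.6 and 51.3 CPM, with a fold change of -0.10 (SE 0.15, edgeR adjusted p = 0.713).

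The box H/ACA proteins carry the guide RNAs for the conversion of uridine to pseudouridine. DKC1 (dyskerin), the enzyme itself, stood at 312, 303 and 274 CPM against 251, 256 and 248. Its groups did not overlap, with a fold change of 0.23 (SE 0.12, edgeR adjusted p = 0.298). GAR1 was at 37.9, 38.0 and 34.9 CPM against 33.5, 39.5 and 40.3 CPM, and the libraries of the groups mixed (fold change -0.033, SE 0.13, edgeR adjusted p = 0.906). NHP2 and NOP10 also overlapped, with 67.8 to 73.4 CPM against 61.4 to 73.6 for NHP2 and 61.4 to 81.5 against 49.99 to 65.9 for NOP10.

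None of the 3 RNA polymerase I subunits passed the test, and their intervals overlap. POLR1A, the largest subunit, was read at 88.5, 78.8 and 67.2 CPM against 70.5, 52.4 and 58.8 CPM, where KD3 fell within the control range. Its fold change was 0.37 (SE 0.16, edgeR adjusted p = 0.233). The second largest subunit POLR1B stood at 142, 131 and 178 CPM against 160, 128 and 161 CPM, with both group means at 150 CPM (fold change 0.0067, SE 0.16, edgeR adjusted p = 0.986). POLR1C, which is shared with RNA polymerase III, ranged from 25.1 to 31.6 CPM against 25.2 to 28.6.

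The nucleolar scaffold class held the most abundant genes and both kinds of pattern. NOLC1 (ENSG00000166197, chr10:102152176-102163871), a phosphoprotein that binds snoRNPs, was at 296, 301 and 251 CPM against 222, 202 and 218 CPM. All 3 HHEX hairpin libraries exceeded the controls, with a fold change of 0.40 (SE 0.13, edgeR adjusted p = 0.154). NCL did so by a narrow margin, at 1231, 1144 and 986 CPM against 928 to 980.

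NPM1 had the split seen for MYC. Its levels were 1872, 1757 and 2727 CPM, against 2098, 2374 and 2166 CPM. KD1 and KD2 were below and KD3 above all controls. DDX21, with the largest p of the class, was highest in KD3 as well, at 498, 549 and 821 CPM against 662, 541 and 622 CPM (fold change 0.033, SE 0.21, edgeR adjusted p = 0.940).

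Small subunit assembly factors held genes of both patterns. UTP20 (ENSG00000120800, chr12:101280109-101386616), a large scaffold of the small subunit precursor, was at 98.6, 104 and 81.9 CPM against 71.6, 54.4 and 71.4 CPM. It was above all controls in all 3 libraries, with a fold change of 0.52 (95% interval 0.17 to 0.88, SE 0.15, edgeR adjusted p = 0.138). UTP15 and WDR75, which belong with UTP4 and WDR43 to an early complex on the precursor RNA, were also clear of the controls. WDR75 was at 107, 108 and 101.2 CPM against 87.0, 85.2 and 87.2, and UTP15 at 48.0, 50.4 and 52.6 CPM against 40.05, 35.5 and 46.3.

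UTP4 of the same complex showed the split instead. It stood at 214, 208 and 313 CPM against 258, 234 and 245 CPM, with group means of 245 and 246 CPM (fold change -0.0049, SE 0.17, edgeR adjusted p = 0.990). NOB1 (ENSG00000141101, chr16:69741867-69754940), the nuclease that makes the final cut at the end of 18S ribosomal RNA, was at 55.3, 50.6 and 113 CPM against 102, 93.5 and 90.7 CPM. KD1 and KD2 held 58.1% and 53.2% of the control mean and KD3 119%. Its fold change was -0.38 (SE 0.29, edgeR adjusted p = 0.468), and -0.82 (edgeR adjusted p = 0.000229) without KD3. The fit without KD3 called 31.6% of all its genes and rests on KD1 and KD2, the most alike of all pairs. The export factor RRP12 was lower in KD1 and KD2 (54.8 and 48.8 CPM) than in any control (65.8 to 74.9 CPM), and KD3 at 66.7 CPM lay within the control range. WDR43 (141 to 170 CPM against 128 to 153) and NOP14 (34.6 to 42.8 against 37.2 to 39.97) overlapped. RCL1 was lower in all 3 libraries by a narrow margin, at 14.2 to 15.16 CPM against 15.5 to 15.7 (fold change -0.094, SE 0.15, edgeR adjusted p = 0.747).

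None of the large subunit assembly factors passed the test, and apart from PPAN their log2 fold changes ran from -0.21 (RRS1) to 0.19 (GNL3). GNL3 (nucleostemin), a nucleolar GTP-binding protein, had the smallest p, at 284, 272 and 333 CPM against 252, 276 and 251 CPM. KD2 fell within the control range, and the fold change was 0.19 (SE 0.13, edgeR adjusted p = 0.428). Of the trimer that processes the large subunit precursor, BOP1 had the largest p of the class, at 100.1, 92.9 and 96.3 CPM against 79.1, 113 and 90.9 CPM (fold change 0.030, SE 0.15, edgeR adjusted p = 0.924). Its partners PES1 (140 to 168 CPM against 138 to 150) and WDR12 (85.5 to 104 against 85.3 to 95.8) overlapped too. The helicase DDX18 at 249 to 261 CPM against 230 to 251 and NOP16 at 34.3 to 39.6 against 28.2 to 36.2 overlapped in the same way, as did RRS1 at 37.7 to 42.5 against 33.2 to 59.4. PPAN had the widest relative spread of the class, at 2.56, 3.0 and 1.06 CPM against 1.87, 0.996 and 1.37. KD1 and KD2 held 182% and 213% of its control mean, and its fold change of 0.65 was above that of any other of the 34 genes, with a wide error (SE 0.47, edgeR adjusted p = 0.449).

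**Figure D4:**
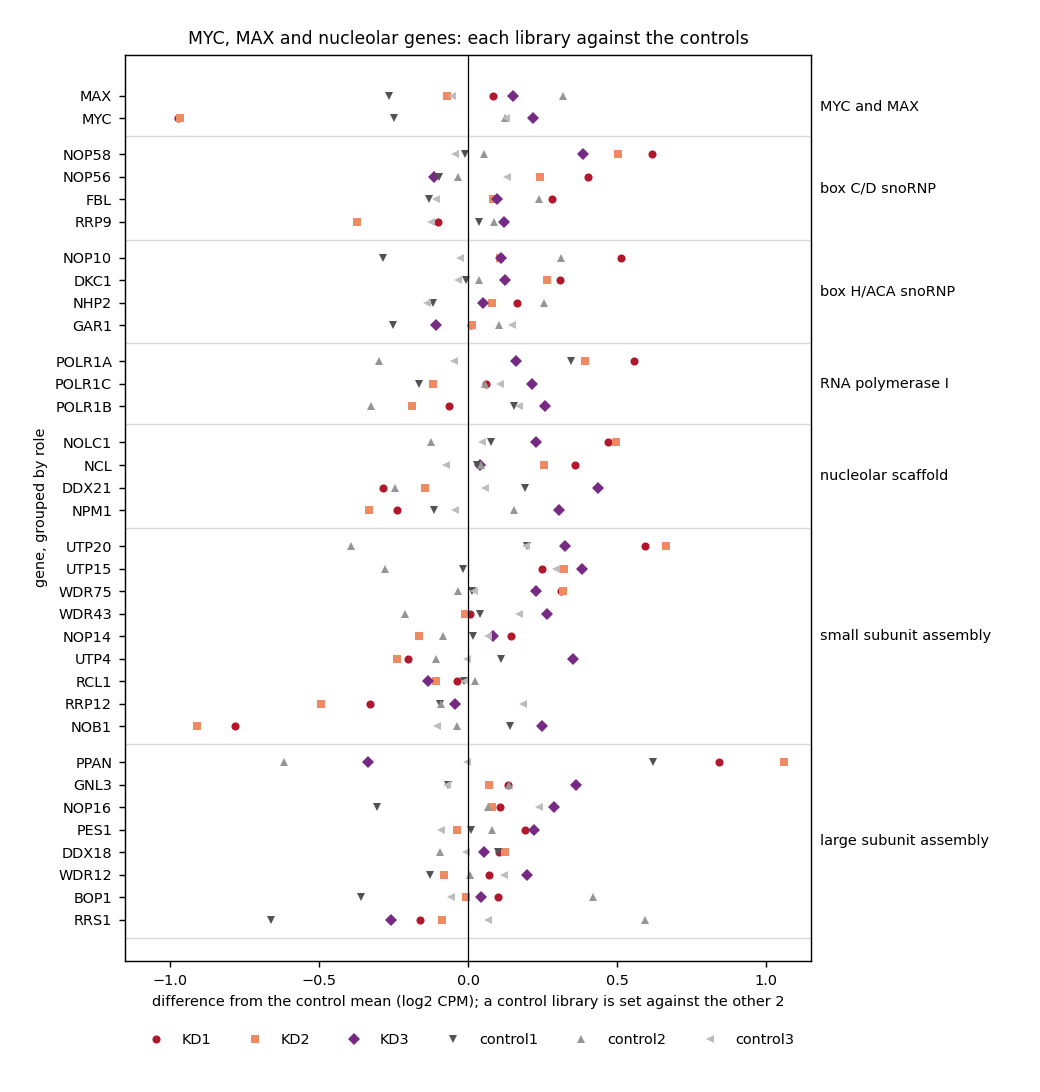
Difference of each library from the control mean on log2 CPM for the 34 tested genes, grouped by role; a control library is set against the mean of the other 2 controls. MYC and NOB1 stand out on the left in KD1 and KD2 only, while NOP58, NOLC1, UTP20 and WDR75 lie to the right in all 3 HHEX hairpin libraries.

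Read library by library, the genes followed no single pattern. Past a fold of 1.5 from the control mean, KD1 had 3 genes higher (NOP58, UTP20 and PPAN) and 2 lower (MYC and NOB1), against 12.1% and 17.9% of all tested genes. KD2 had 2 higher (UTP20 and PPAN) and 2 lower (MYC and NOB1), against 12.5% and 18%. KD3 had none in either direction, against 6.48% and 10.1%. Among the controls, set against the other 2, control1 and control2 had 1 gene in each direction and control3 had none.

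The split seen in MYC, with KD1 and KD2 below and KD3 above the control mean, held for 7 of 34 genes (MYC, RRP9, POLR1B, NPM1, DDX21, UTP4 and NOB1, 20.6%), against 17.3% of all tested genes. All 3 libraries lay above the control mean for 14 of 34 genes (41.2%), against 23.3%. These 14 were NOP58, FBL, DKC1, NHP2, NOP10, POLR1A, NCL, NOLC1, UTP15, UTP20, WDR75, NOP16, DDX18 and GNL3. The first share is near its background. The 36 genes together took 0.688% (KD2) to 0.806% (KD3) of a library's counts, and 0.701% to 0.735% in the controls.

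Leaving out KD3, the library nearest the controls, gave calls for 11 of the 34 genes in edgeR (32.4%), a share close to the 31.6% of all genes tested in that fit. NOP58 (log2 fold change 0.58), UTP20 (0.64), NOLC1 (0.51), POLR1A (0.49), WDR75 (0.34), NOP56 (0.35), DKC1 (0.31) and NCL (0.33) rose, with edgeR adjusted p from 0.00116 for NOP58 to 0.0441 for NCL. MYC (-0.95), NOB1 (-0.82) and RRP12 (-0.39) fell. The small subunit class thus held calls in both directions, UTP20 and WDR75 against NOB1 and RRP12. With 4675 genes called in all, the count says nothing particular about these genes, and KD1, 1 of the 2 libraries left, does not have less HHEX than the controls. KD1 and KD2 were also the most alike of all pairs, so that the p-values without KD3 may in part measure technical spread. Without KD1, KD2, control2 or control3 no gene at all was called by edgeR (1789, 1625, 1947 and 1806 genes at an unadjusted p under 0.05), and without control1 a single gene was called that is not among the 34.

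By class the medians were small. On the difference from the control mean (log2 CPM), box C/D genes had medians of 0.34, 0.16 and 0.11 (KD1 to KD3), and box H/ACA genes 0.24, 0.093 and 0.080. The small subunit genes had 0.0084, -0.11 and 0.25 and the scaffold genes 0.060, 0.055 and 0.27. Members of a class went opposite ways: NCL (0.36, 0.25 and 0.039) and NOLC1 (0.47, 0.49 and 0.23) of the scaffold class were lowest in KD3, while NPM1 and DDX21 were highest there. Control libraries reached -0.18 and 0.18 for the box H/ACA class and -0.30 and 0.15 for RNA polymerase I. For RNA polymerase I the medians of the HHEX hairpin libraries, 0.062, -0.12 and 0.22, overlapped this range, and large subunit genes had 0.10, 0.031 and 0.13. With upper quartile scaling the median fold changes of RNA polymerase I (0.058) and of the small subunit class (0.028) turned negative (-0.0036 and -0.034). The latter was negative also without scaling factors (-0.017) and with a filter of 10 CPM (-0.013). The median of all tested genes was -0.014 in the main fit and -0.076 with upper quartile scaling. It was -0.057 without scaling factors and -0.00079 with the filter of 10 CPM.

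**Figure D5:**
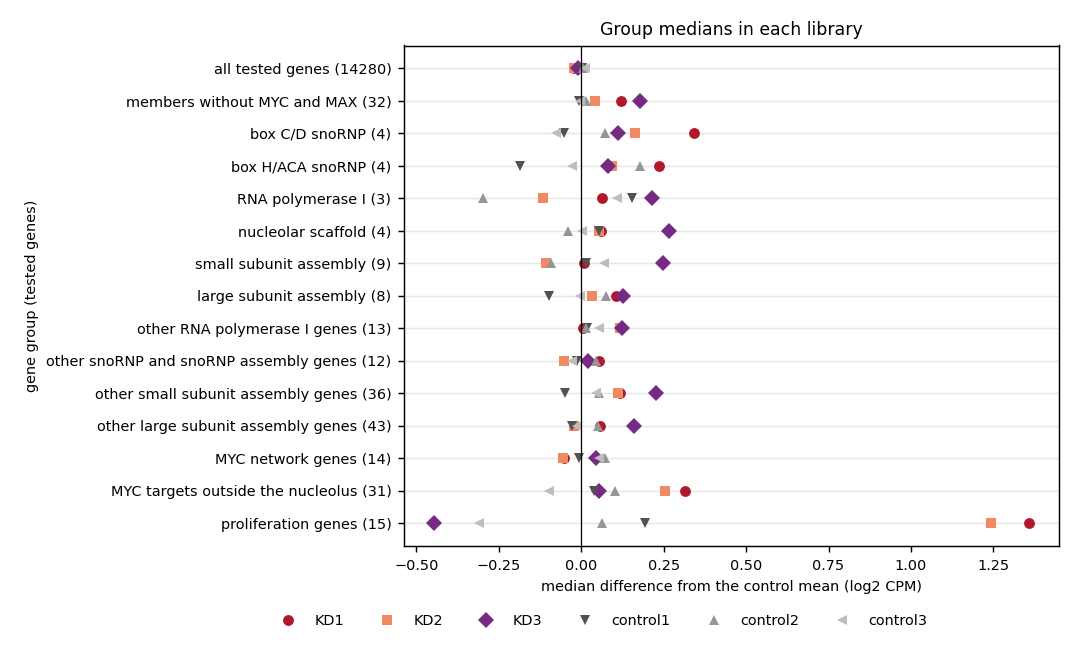
Median difference from the control mean (log2 CPM) in each library, for the classes described here, further lists of related genes and all tested genes, with the number of tested genes in parentheses. Proliferation genes lie at 1.36 and 1.24 in KD1 and KD2, far outside the range of the ribosome classes, and at -0.45 in KD3.

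The medians of genes with an E-box in the promoter window were not above those of genes without. The 12 tested genes with the motif had medians of 0.071, -0.023 and 0.17 (KD1 to KD3), and the 15 without it had 0.16, 0.080 and 0.20. UTP20 and UTP4, both shown above with a motif, had fold changes of 0.52 and -0.0049. The difference between these sets was not tested.

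The rest of the ribosome biogenesis machinery gave a wider view, through 104 tested genes of 4 further lists. None of them passed the edgeR threshold, which 0.105% of all tested genes passed on the higher and 0.077% on the lower side. Fold changes were positive for 70 of 104 (67.3%, against 48.6% of all tested genes) with a median of 0.074. Groups did not overlap in the higher direction for 22 of the 104 (21.2%, against 11.6% of all tested genes) and in the lower direction for 0 (against 13.3%). By list, the higher direction held 2 of 13 RNA polymerase I genes (15.4%), 1 of 12 snoRNP genes (8.33%), 9 of 36 small subunit genes (25%) and 10 of 43 large subunit genes (23.3%).

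In each of these lists the genes with the smallest p in either direction show the range. TCOF1 (treacle), which helps RNA polymerase I start, was at 299, 284 and 187 CPM against 158 to 182 (log2 fold change 0.58, edgeR adjusted p = 0.154). UTP3 was at 89.9, 90.4 and 83.1 CPM against 57.2 to 66.1 (0.52, edgeR adjusted p = 0.105), and RRP1B at 161, 161 and 113 CPM against 91.6 to 115 (0.53, edgeR adjusted p = 0.154). UTP3 was clear of the controls in all 3 libraries, and TCOF1 was clear by a narrow margin in KD3.

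On the lower side stood POLR1D (log2 fold change -0.36), NOP53 (-0.69), SDAD1 (-0.30) and NAT10 (-0.066). Of these, NOP53, which takes part in large subunit assembly, was listed here with the snoRNP genes. It was at 139, 121 and 288 CPM against 216 to 373. POLR1D, a subunit shared with RNA polymerase III, was at 72.2, 67.8 and 132 CPM against 110 to 125. Both NOP53 and POLR1D were lowest in KD1 and KD2, and in POLR1D KD3 lay above all controls, as in MYC. TGS1, also listed with the snoRNP genes, had a fold change of 0.19.

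Other genes around MYC were read from 2 lists. In the network of MYC and MAX partners, with 14 tested genes, none passed the edgeR threshold. MNT, a repressor that pairs with MAX, was lower in all 3 libraries: 14.8, 13.36 and 13.0 CPM against 20.4, 21.8 and 21.9 CPM. Its fold change was -0.64 (SE 0.15, edgeR adjusted p = 0.105), and unlike MYC its groups did not overlap. MLXIP had the smallest p on the higher side (log2 fold change 0.19). 

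Known MYC targets outside the nucleolus held 31 tested genes, and none passed the edgeR threshold. Fold changes were positive for 21 of them (67.7%, against 48.6% of all tested genes), with a median of 0.23 against -0.014. By library the medians of the difference from the control mean were 0.31, 0.25 and 0.053 (KD1 to KD3). In the controls they were 0.037, 0.10 and -0.099, so that the lean to the higher side lay mostly in KD1 and KD2. The transferrin receptor TFRC, which takes up iron, was at 941, 1048 and 501 CPM against 304, 257 and 341 CPM. All 3 HHEX hairpin libraries were above the controls (log2 fold change 1.46, SE 0.27, edgeR adjusted p = 0.0768). IMPDH2, an enzyme of guanine nucleotide synthesis, was at 354, 308 and 507 CPM against 529 to 584 (log2 fold change -0.50, edgeR adjusted p = 0.203).

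Proliferation genes moved with the split of the libraries. The 15 genes of that list summed to 3819 and 3863 CPM in KD1 and KD2, to 1213 CPM in KD3 and to 1503 to 1852 CPM in the controls, and 0 of 15 passed the edgeR threshold in the comparison of all libraries. CCNE2, a cyclin of entry into S phase, was at 35.5, 35.2 and 12.5 CPM against 8.70 to 11.9 (log2 fold change 1.42, edgeR adjusted p = 0.124). MYC was thus lowest in the libraries with the highest sum of proliferation genes. Epithelial markers summed to 2142, 1901 and 1314 CPM against 1181 to 1558, and nuclear-retained transcripts to 747 to 869 CPM against 808 to 1534. Of the latter, NEAT1 was lower, at 426, 462 and 502 CPM against 551 to 1115, while MALAT1 overlapped, at 262 to 400 against 251 to 411. Fibroblast markers summed to 42.5, 48.1 and 14.4 CPM against 43.6 to 55.8, and endothelial markers to 15.0, 14.1 and 5.14 CPM against 15.0 to 16.4. COL3A1 made up most of the fibroblast sum and CDH5 most of the endothelial sum. Neural markers, summing to 33.0, 33.6 and 79.9 CPM against 60.7 to 69.5, had the same split as MYC, with SYT1 at 7.08, 8.07 and 36.2 CPM against 29.7 to 31.5. The part of any of these in the values of MYC or the ribosome genes was not tested.

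The 3 tested genes whose log2 CPM followed MYC most closely over the 6 libraries were TAF1D, RAB39B and ZNF674, each with Pearson r = 0.998. TAF1D codes for a subunit of the selectivity factor that brings RNA polymerase I to ribosomal DNA, and stood at 137, 141 and 315 CPM against 238, 277 and 294 CPM. Of the genes described here, NOB1 (r = 0.957), RRP12 (0.909) and NPM1 (0.898) were the most like MYC, and PPAN (-0.944) and NCL (-0.931) the least. These correlations are descriptions over 6 libraries, of which KD1 and KD2 have nearly the same levels, and 2.63% of all tested genes followed MYC more closely than NOB1 did.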

How the data were processed

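The authors deposited raw counts per gene, whose totals differ between libraries, from mRNA capture libraries per the labels' protocols. Aligner, counter, strand setting and build: not given in the sources used here. Start and end of 58672 of 58735 named genes equal those of GENCODE on GRCh38. Columns could be mapped to groups but not to replicate labels. A further 6 columns of per-sample values were not used. Unnamed loci (998 of 59733 rows, 0.239% to 0.298% of counts) were left out.

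The fit used R 4.3.3 and edgeR 4.0.16, with filterByExpr by group, TMM scaling, robust quasi-likelihood fit, Benjamini-Hochberg adjustment over all tested genes, threshold 0.05. DESeq2 1.42.0 and limma 3.58.1 were alternatives. The procedure was tested on simulated data. CPM used TMM factors, log2 CPM a prior count of 2, and RPKM the union of exons. Each SE is the fold change divided by the root of its F statistic.

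The genes and lists were chosen with earlier results of these data known, so no list has a p of its own. Every gene of the 36 is named. MYC, MAX and the smallest and largest p of a class have all library values, other lists the smallest p in each direction, and the 3 genes most correlated with MYC are named. Other genes given by library (NPM1, NOB1, WDR75, UTP15 and PPAN) are those a sentence compares.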

Additional observations from a re-analysis of the deposited data

How the results depend on the processing

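Over 14 alternatives, 426 of 475 fold changes of single genes kept their sign and side of the threshold, 14 passed it and 35 changed sign. All genes called numbered 26, but 1359 with no low-count filter, 12 with at least 10 CPM in 3 libraries, 764 with DESeq2, and 0 to 4675 when a library was left out. With no filter, NOP58 and UTP20 were called, 2 of the 36 genes then tested (5.56%), against 4.80% of all genes. DESeq2 called 1 of 34 (NOP58, 2.94%), against 2.99% of its genes higher and 2.35% lower. On leaving out a library, called genes of the 34 ranged from 0 to 8 higher and 0 to 3 lower. Both were highest without KD3, where 32.4% of the 34 were called, against 31.6% of all genes. Non-overlapping groups in the lower direction numbered 0 with RLE scaling and DESeq2, and 2 with upper quartile scaling and with no scaling factors. They numbered 0 to 5 on leaving out a library. In the higher direction they numbered 7, but 5 with upper quartile scaling, no scaling factors and the 10 CPM filter. On leaving out a library they numbered 7 to 13, with 12 without KD3 and 13 without control2. With fewer libraries, groups separate more easily for any gene. The share of all tested genes was not counted in these alternatives, so the counts say nothing particular about these genes. Of all genes called, 15 were higher and 11 lower, against 15 and 20 with upper quartile scaling, 15 and 22 with no scaling factors, and 9 and 3 with the filter of 10 CPM. Leaving out a library moved class medians, which ranged from -0.46 to -0.072 for MYC and MAX, 0.081 to 0.28 for box C/D, 0.082 to 0.23 for box H/ACA, -0.0017 (without KD3) to 0.14 for RNA polymerase I, 0.069 to 0.19 for the scaffold (0.067 with upper quartile scaling) and 0.018 to 0.12 for small subunit genes.

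With upper quartile scaling the sign turned for MAX (-0.013), POLR1B (-0.053), POLR1C (-0.0036), DDX21 (-0.026), NOP14 (-0.034) and BOP1 (-0.033). With no scaling factors it turned for POLR1B (-0.040), DDX21 (-0.013), NOP14 (-0.017) and BOP1 (-0.011), and with the 10 CPM filter for the same genes (-0.032, -0.0040, -0.013 and -0.011). UTP4 turned to 0.012 with RLE scaling and 0.021 with DESeq2. The median of all tested genes moved too, from -0.014 to -0.076 with upper quartile scaling and -0.057 with no scaling factors. It was -0.00079 with the 10 CPM filter, 0.0057 with RLE scaling and 0.015 with DESeq2. On leaving out a library, fold changes ranged from -0.010 to 0.18 for MAX, -0.21 to 0.018 for RRP9, -0.085 to 0.031 for GAR1, -0.11 to 0.10 for POLR1B, -0.0017 to 0.14 for POLR1C, -0.26 to 0.060 for NPM1, -0.19 to 0.17 for DDX21, -0.20 to 0.10 for UTP4, -0.032 to 0.12 for NOP14, -0.057 to 0.20 for BOP1 and -0.37 to 0.031 for RRS1. The cause was not tested.

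No paired analysis was possible because the column names carry no replicate numbers of the labels. Low counts and same-strand exon overlap leave the levels of NOP2, IPO4 and PPAN uncertain. With 3 libraries a group, of which 1 HHEX hairpin library lies near the controls and another has no less HHEX than the controls, a fold change that misses the threshold does not show equal levels.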
